A study of Rattus norvegicus with 6 samples.

Results

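The miR-23/27/24 family of rat tendon-derived stem cells (rTDSCs) was followed through the 5 array features named rno-miR-23a, rno-miR-23b, rno-miR-24, rno-miR-27a and rno-miR-27b, out of 677 miRNAs on the array. They were selected by name, without the opposite (star) arms, and no measured value enters that rule, although earlier results of these data were known when the family was chosen. All 5 were detected on all 6 arrays by the scanner software and entered the comparison of mechanical loading with non-loading, as did 148 miRNAs in all. No member of the family passed the test: the 5 mean signals were all higher under mechanical loading, by 0.11 to 0.31 on the log2 scale, and the adjusted p from limma lay between 0.486 and 0.724. Neither the balance between the a and b paralogs nor that between cluster-mates differed between the groups beyond the spread of the arrays.

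rTDSCs are cells grown out of the patellar tendon of male, 8-week-old Sprague Dawley rats, and cells of passage 3 were used here. Both groups were grown on flexible silicone membranes coated with collagen type I and collected at 7 days. The mechanical loading group (3 samples) was stretched along 1 axis in cycles of 0.5 Hz with 10% elongation, 8 h of each day, and the non-loading group (3 samples) was kept static. Total RNA of each sample was labelled with Cy3 and hybridised to 1 array of an Agilent rat miRNA slide, and the 6 arrays shared 1 slide. The sources used here give no separate animals or cultures for the samples of a group, so the p-values measure only the spread between these samples, which may be technical. Isolated cells on a coated membrane lack the matrix and the other cells of a tendon, and cyclic stretch is the single stimulus that separates the groups.

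A miRNA is a short RNA that guides Argonaute to messenger RNAs through pairing of its seed, bases 2 to 8, and so lowers their translation or stability. miR-23, miR-27 and miR-24 are cut from a common primary transcript, and mammals carry a pair of such clusters, the miR-23a cluster and the miR-23b cluster. Each primary transcript gives 1 miRNA of each kind, and both clusters give the same mature miR-24. In background knowledge, miR-27 is known as a brake on adipocyte formation, miR-23a as a repressor of the osteoblast transcription factor Runx2 in bone cells, and members of the family also act in endothelium and in muscle. The study asked how stretch turns tendon stem cells towards bone and cartilage, and its array comparison addressed which miRNAs change with it.

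The mature sequences below are from RefSeq (rat build GRCr8), 5′ to 3′, with the seed in capitals, and are shown because the seed decides which members share targets and because the paralogs are almost identical. The array names carry no arm and were matched to the -3p entries, a match by name only, since the array files hold no probe sequence. All 5 names matched.
miR-23a: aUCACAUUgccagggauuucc
miR-23b: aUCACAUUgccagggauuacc
miR-27a: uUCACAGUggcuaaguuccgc
miR-27b: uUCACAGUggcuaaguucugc
miR-24: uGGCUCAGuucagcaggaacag

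Counted from 1 at the 5′ end, miR-23a and miR-23b differed at 1 of 21 positions (U19A, first miR-23a, then miR-23b), and miR-27a and miR-27b at 1 of 21 (C19U, first miR-27a, then miR-27b). Both differences lie outside the seed, so the paralogs share their seed in full. Over bases 1 to 8, miR-23a and miR-27a differed by A1U and U7G, of which 1, U7G, is in the seed. Among 693 mature rat names in the table, no other name carried one of these 3 seeds, and miR-24 was alone with its own. Whether a probe of one paralog also captures the other, which is 1 base away, was not tested.

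The miR-23a cluster lies on the minus strand at chr19:40859455-40859843, a span of 389 bases that holds Mir23a, Mir27a and Mir24-2 in this order. The gene table places no protein-coding gene across the cluster, and the nearest one is Zswim4. Non-coding genes were not searched. Mature miR-23a is at chr19:40859778-40859798, miR-27a at chr19:40859614-40859634 and miR-24 at chr19:40859481-40859502. The miR-23b cluster is on the minus strand at chr17:1818669-1819482 and spans 814 bases with Mir23b, Mir27b and Mir24-1 in this order. It lies inside the bounds of Aopep, an aminopeptidase gene. The bounds of Fancc, another protein-coding gene, overlap the cluster only in part. Mature miR-23b is at chr17:1819405-1819425, miR-27b at chr17:1819163-1819183 and miR-24 at chr17:1818672-1818693. The table does not say whether a hairpin is in an exon or an intron. Since the copies of miR-24 are identical, its array signal is the sum of both loci and cannot be divided between them.

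The signals of the family were far from the background of the array. Each member had 2 probes with 10 spots each, and 600 of the 600 member spots on the 6 arrays were well above background by the scanner's call, with 0 saturated. Mean probe intensities ran from 80.9 to 2218 units, against a standard deviation of 1.80 to 2.28 units among the negative-control spots of an array. Spots flagged as outliers, 26 of the 600, were left out, and the coefficient of variation among the spots of a probe had a median of 8.65%. To set arrays side by side, each was divided by its 75th percentile over 173 probes detected on all 6 arrays, the probes of a miRNA were summed, and log2 was taken, so that 0 is the level of that percentile. That percentile was 275.1, 304.1 and 362.2 intensity units on non-loading replicates 1, 2 and 3, and 319.3, 262.6 and 324.4 units on loading replicates 1, 2 and 3. Between 140 and 186 miRNAs were detected per array. The small number of arrays limits the precision. Probes differ in how well they bind, so a level of one miRNA is not set against that of another.

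In the miR-23a cluster, rno-miR-23a had the smallest difference of the family. Its log2 scaled signal was 2.63, 2.88 and 2.95 on non-loading replicates 1, 2 and 3, and 3.06, 2.77 and 2.96 on loading replicates 1, 2 and 3. The groups overlapped, and the lowest array of each group was the one in the first column of the slide. The means were 2.82 ± 0.16 (SD, n = 3) and 2.93 ± 0.14 (SD, n = 3), or 709% and 764% of the 75th percentile. The log2 change was 0.11 (standard error 0.12, 95% interval -0.19 to 0.41, limma adjusted p = 0.724), a fold of 1.08 with an interval of 0.878 to 1.33. Single arrays moved this value, which was 0.017 without non-loading replicate 1, 0.048 without loading replicate 1 and 0.18 without loading replicate 2. In bulk RNA, fewer cells with a miRNA and less of it per cell cannot be told apart, here and for every value that follows.

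rno-miR-27a, the next miRNA of the same transcript, was tighter. Its log2 scaled signal was 2.26, 2.45 and 2.31 on the non-loading arrays and 2.48, 2.53 and 2.53 on the loading arrays, in the order of replicates 1 to 3. The groups did not overlap, though the gap between them was as small as the step from 2.45 to 2.48. The means were 2.34 ± 0.10 (SD, n = 3) and 2.51 ± 0.03 (SD, n = 3). The change of 0.17 (standard error 0.08, 95% interval -0.03 to 0.38) did not pass the test (limma adjusted p = 0.606) and is a fold of 1.13.

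In the miR-23b cluster, rno-miR-23b showed a similar difference. Its log2 scaled signal was 2.50, 2.46 and 2.43 on the non-loading arrays and 2.57, 2.71 and 2.65 on the loading arrays. The groups did not overlap, and the non-loading arrays lay close together. The means were 2.46 ± 0.03 (SD, n = 3) and 2.64 ± 0.07 (SD, n = 3). The change was 0.18 (standard error 0.08, 95% interval -0.01 to 0.36, limma adjusted p = 0.568), which is a fold of 1.13.

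rno-miR-27b, which has the seed of miR-27a, had the widest difference of the family, with a standard error as large as that of miR-23a. Its log2 scaled signal was 0.34, 0.55 and 0.71 on the non-loading arrays and 0.93, 0.70 and 0.89 on the loading arrays. The groups met where non-loading replicate 3 and loading replicate 2 lay at almost the same level. The means were 0.53 ± 0.18 (SD, n = 3) and 0.84 ± 0.12 (SD, n = 3), or 145% and 180% of the 75th percentile. The change was 0.31 (standard error 0.12, 95% interval 0.01 to 0.61, limma adjusted p = 0.486), a fold of 1.24 with an interval of 1.01 to 1.52.

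rno-miR-24, made by both clusters, had log2 scaled signals of 2.73, 2.77 and 2.86 on the non-loading arrays and 3.01, 2.91 and 3.03 on the loading arrays. The groups did not overlap. The means were 2.79 ± 0.07 (SD, n = 3) and 2.99 ± 0.06 (SD, n = 3). The change of 0.20 (standard error 0.08, 95% interval 0.00 to 0.39, limma adjusted p = 0.486) is a fold of 1.15.

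**Figure D1:**
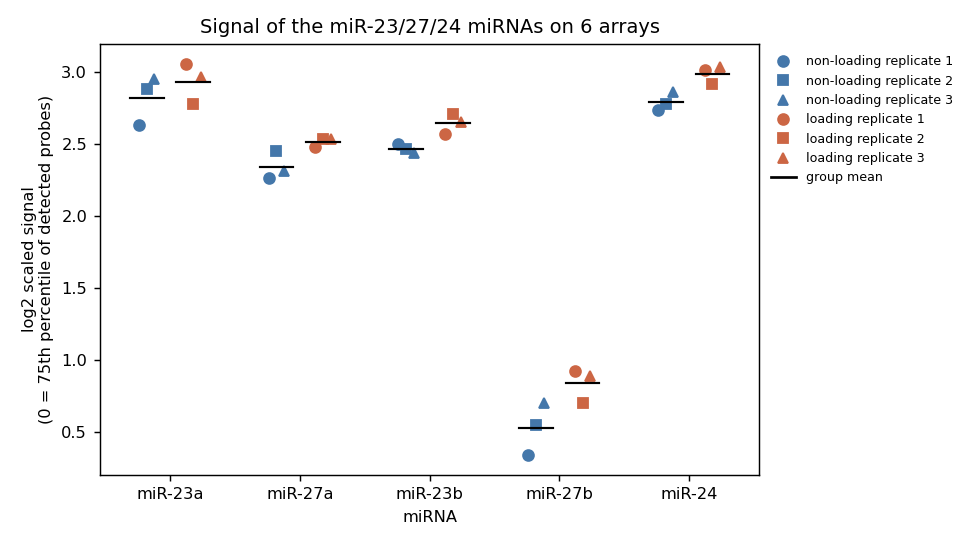
Log2 scaled signal (y axis, 0 is the array's 75th percentile of detected probes) of the 5 miRNAs (x axis) on each of the 3 non-loading (blue) and 3 loading (orange) arrays, with the symbol giving the replicate and the bar the group mean. The loading mean is the higher one for each miRNA, the groups of miR-23a and miR-27b overlap, and heights of different miRNAs are not to be compared, since their probes differ.

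Over the family, 0 of 5 members had an adjusted p under 0.05 in limma, where the share of all 148 tested miRNAs was 0% and their smallest adjusted p was 0.0551. At an unadjusted p under 0.05 stood 2 of 5 (miR-27b and miR-24), beside 9.46% of all tested miRNAs, which were 14, with 13 higher and 1 lower under loading. With any 1 array left out, the unadjusted p of miR-24 was above 0.05, and that of miR-27b was below it only without non-loading replicate 3 or without loading replicate 2, in the same limma fit. Neither had an unadjusted p under 0.05 with normexp, quantile normalization, the 75th percentile over all probes, Agilent's total gene signal, no scaling or the row of the slide as a block, nor did miR-24 with the brightest probe or the column as a block, or miR-27b with no filter on dim miRNAs. The methods' test, at its own threshold before adjustment, instead called miR-27a, miR-23b and miR-24 among 15 miRNAs, and after Benjamini-Hochberg adjustment 2 miRNAs, neither of them a member. That split of directions depended on the scaling, being 8 and 5 with quantile normalization, 3 and 5 with Agilent's total gene signal, 3 and 1 without scaling, and 0 and 1 with a 75th percentile over all probes. The groups did not overlap, with loading higher, for 3 of 5 members, beside 12.8% of all tested miRNAs, and with loading lower for 0 of 5, beside 2.70%. The 5 miRNAs come from a pair of transcripts and are not 5 independent measurements of loading. In the exact permutation test over the arrays (two-sided, 20 arrangements), p was 0.1 for miR-27a, miR-23b and miR-24, 0.2 for miR-27b and 0.4 for miR-23a, and 3 arrays against 3 cannot go below 0.1.

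The median change of all 148 tested miRNAs was 0.06, with quartiles of -0.07 and 0.15, and 99 were above 0 and 49 below. The sign of this median depended on the setting, being -0.013 without non-loading replicate 3, -0.026 with Agilent's total gene signal, 0.0028 with quantile normalization and -0.09 with the 75th percentile over all probes. The median of the family was 0.18, and 4 of its 5 changes, all but that of miR-23a, lay above the upper quartile. Ranked by p, miR-27b was 12th, miR-24 14th, miR-23b 15th, miR-27a 17th and miR-23a 79th of 148. For scale, the smallest p values on the array belonged to miR-132 with a change of 0.51, miR-221 with 0.45 and miR-222 with 0.30 (limma adjusted p = 0.0551, 0.0551 and 0.451). The range of a member over the 6 arrays, which includes the group difference, was 0.27 to 0.59, beside a median of 0.44 for all tested miRNAs. The ranges of miR-27a, miR-23b and miR-24 were 0.28, 0.27 and 0.30, that of miR-23a, at 0.42, was close to the median, and that of miR-27b was above it.

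**Figure D2:**
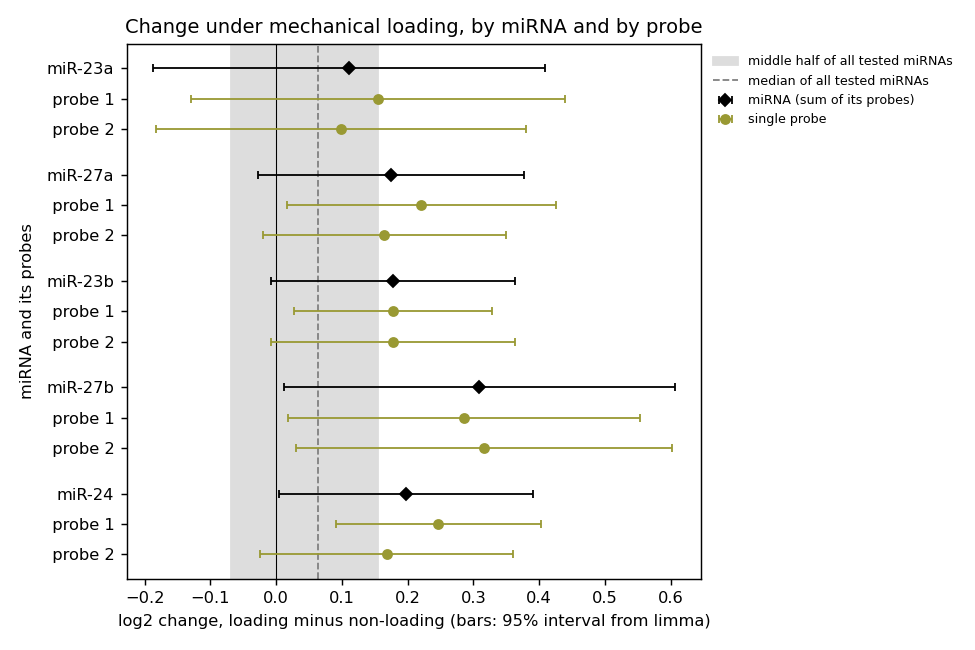
Log2 change, loading minus non-loading (x axis), with its 95% interval from limma for each miRNA (black diamonds) and each of its 2 probes (olive circles), with the grey band marking the quartiles -0.07 to 0.15 of all tested miRNAs and the dashed line their median of 0.06. All 5 miRNAs and 10 probes are to the right of 0, and the intervals of miR-23a, miR-27a and miR-23b include 0.

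Each member was read by 2 probes, and these gave like changes. All 10 probe changes were above 0, from 0.10 to 0.32. The share of all tested probes above 0 was not counted, and of the 148 tested miRNAs 99 were above 0. The members of a probe pair differed by no more than the step from 0.17 to 0.25 seen for miR-24. In the limma fit over 194 probes, 0 of the 10 had an adjusted p under 0.05, beside 1.55% of all probes, and 5 of the 10 had an unadjusted p under 0.05, beside 13.9%. The groups did not overlap, with loading higher, for 4 of the 10, beside 14.4%. The smallest adjusted p, 0.259, belonged to the dimmer probe of miR-24, whose change was 0.25 (standard error 0.06). On it the loading arrays read 1.60, 1.55 and 1.57 and the non-loading arrays 1.28, 1.32 and 1.39 on the log2 scale. The brighter probe of miR-24, with 61.1% to 63.9% of the signal, had a change of 0.17, and its groups overlapped. For miR-23b the probes changed by 0.18 and 0.18 without overlap, and for miR-27b by 0.29 and 0.32 with overlap on both. For miR-27a the dimmer probe changed by 0.22 without overlap, and this probe was itself the 75th percentile of loading replicate 3. The brighter one, with 81.1% to 83.2% of the signal, changed by 0.16 with overlap.

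Comparison of a and b paralogs asks whether stretch shifted output from one cluster to the other, and it was made as a log2 ratio within each array, which no scale factor touches. miR-23a over miR-23b was 0.13, 0.42 and 0.51 on the non-loading arrays and 0.49, 0.07 and 0.31 on the loading arrays. The loading range lay almost within the non-loading one, and the ratio changed by -0.07 (standard error 0.17, 95% interval -0.53 to 0.40, exact permutation p = 0.7). miR-27a over miR-27b was 1.92, 1.90 and 1.60 on the non-loading arrays and 1.55, 1.83 and 1.64 on the loading arrays. Again the groups overlapped, and the ratio changed by -0.13 (standard error 0.13, 95% interval -0.50 to 0.23, exact permutation p = 0.3). The intervals leave room for a shift between paralogs of up to 0.53 on the log2 scale for miR-23 and 0.50 for miR-27, so equal behaviour of the paralogs is not shown. Only the change of such a ratio is a result, since its level depends on the probes.

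Cluster-mates share a transcript, and their ratios were compared in the same way. miR-23a over miR-27a was 0.37, 0.43 and 0.64 on the non-loading arrays and 0.58, 0.24 and 0.43 on the loading arrays, a change of -0.06 (standard error 0.13, 95% interval -0.42 to 0.29, exact permutation p = 0.6). miR-23b over miR-27b was 2.16, 1.91 and 1.73 on the non-loading arrays and 1.64, 2.00 and 1.76 on the loading arrays, a change of -0.13 (standard error 0.16, 95% interval -0.59 to 0.32, exact permutation p = 0.6). Both pairs overlapped between the groups. Over the 4 ratios the exact permutation p adjusted by Benjamini-Hochberg was 0.7 for each. The sign of the miR-23a ratios turned without non-loading replicate 3 and without loading replicate 2, with 0.011 and 0.044 over miR-23b and 0.015 and 0.023 over miR-27a. With 1 array left out, the change of miR-27a over miR-27b ran from -0.24 (without non-loading replicate 3) to -0.073 (without loading replicate 1), and that of miR-23b over miR-27b from -0.23 (without non-loading replicate 3) to -0.019 (without non-loading replicate 1). With the row of the slide as a block these 2 ratios changed by -0.26 and -0.29, and those of miR-23a by 0.14 over miR-23b and 0.10 over miR-27a.

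**Figure D3:**
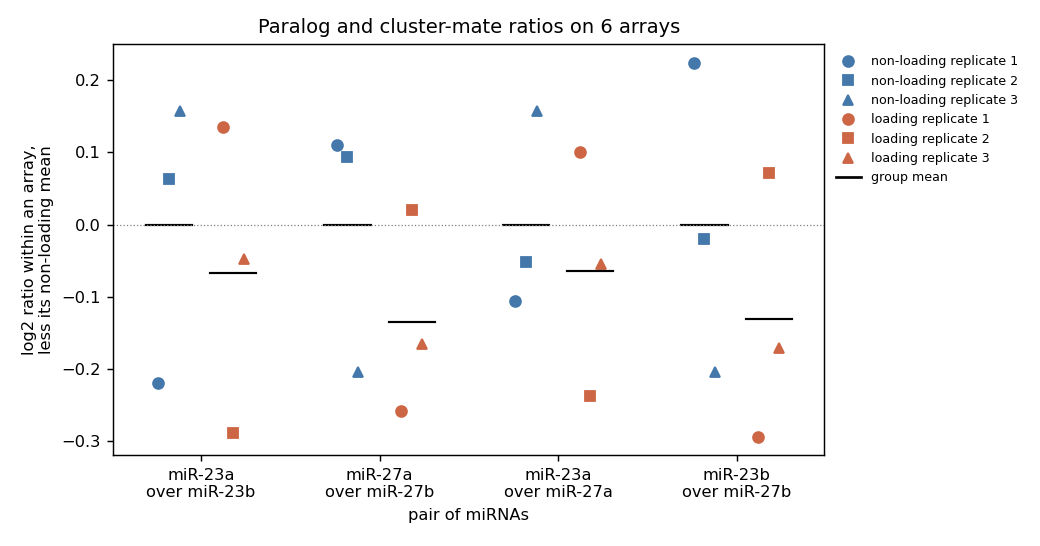
Log2 ratio of 2 miRNAs within an array, less the mean of the non-loading arrays (y axis), for the paralog and cluster-mate pairs (x axis), with 1 symbol per array and bars for group means. For all 4 pairs the loading mean is between -0.13 and -0.06 and the arrays of the groups are intermingled.

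The correlation of log2 scaled signals among the members, a description over 6 arrays that share their scale factors and the group difference, was highest for the cluster-mates miR-24 and miR-27b (r = 0.963). With its other cluster-mates, miR-24 gave 0.729 (miR-23a), 0.717 (miR-27a) and 0.633 (miR-23b). The correlation was 0.871 for miR-23a with miR-27b, from different clusters, and 0.765 for miR-23b with miR-27a, also from different clusters. Of the other cluster-mates, miR-23a with miR-27a stood at 0.451 and miR-23b with miR-27b at 0.465. The paralogs miR-23a and miR-23b gave r = -0.0067, and miR-27a with miR-27b gave 0.693. For comparison, the median over all pairs of tested miRNAs was 0.24. Non-loading replicate 1 and loading replicate 2 were the lowest arrays of their group for miR-23a, miR-27b and miR-24 and the highest for miR-23b.

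Outside the family, the tested miRNAs most like each member over the 6 arrays were named by the highest correlation. For miR-23a they were miR-143 (r = 0.946) and miR-199a-5p (r = 0.924), both abundant in mesenchymal cells. For miR-27a they were miR-21 (r = 0.979), a miRNA raised in fibroblasts and fibrosis, and miR-103 (r = 0.956). miR-23b was closest to miR-125a-5p (r = 0.944) and miR-410 (r = 0.917), and miR-27b, after miR-24, to miR-29c (r = 0.916), a repressor of collagen messenger RNAs. For miR-24 the nearest after miR-27b was miR-455 (r = 0.947), known from cartilage. None of these had an adjusted p under 0.05 in limma, and their changes were between 0.09 for miR-199a-5p and 0.33 for miR-410.

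The position of the arrays on the slide was uneven between the groups. Loading replicate 1 lay in the first row with all 3 non-loading arrays, and loading replicates 2 and 3 lay in the second. Within the first row, loading replicate 1 minus the non-loading mean was 0.24 for miR-23a, 0.14 for miR-27a, 0.10 for miR-23b, 0.39 for miR-27b and 0.22 for miR-24. A fit with the row as a block gave the same values, with a limma adjusted p of 0.775 to 0.809. Within the first column, loading replicate 2 minus non-loading replicate 1 was 0.14 for miR-23a, 0.27 for miR-27a, 0.21 for miR-23b, 0.36 for miR-27b and 0.18 for miR-24. Within the second column, loading replicate 3 minus non-loading replicate 2 was 0.08, 0.08, 0.19, 0.34 and 0.26 in the same order. All 5 members were thus higher on the loading array in both columns. Of the 148 tested miRNAs 71 were in the first column, with a median difference of -0.05, and 89 in the second, with a median of 0.03. A fit with the column as a block gave 0.11 for miR-23a, 0.18 for miR-27a, 0.20 for miR-23b, 0.35 for miR-27b and 0.22 for miR-24, with a limma adjusted p of 0.389 to 0.526. Each difference inside 1 row or column has a single loading array.

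The opposite arms of the hairpins, the strands usually discarded, were mostly undetected. Of 6 on the array (miR-23a*, miR-23b*, miR-24-1*, miR-24-2*, miR-27a* and miR-27b*), 5 were detected on no array and 0 could be tested. miR-24-2*, which is made by the miR-23a cluster only, was called detected by the scanner software on loading replicates 1 and 3, at 1.34% and 2.25% of the 75th percentile. On the other arrays it gave -1.94%, 1.10% and -3.70% in non-loading replicates 1, 2 and 3 and -2.08% in loading replicate 2, where a negative value is a signal under the local background. This arm would tell the copies of miR-24 apart, as the RefSeq sequences of the -5p entries show, with the bases after the shared first 16 in capitals.
miR-24-1*: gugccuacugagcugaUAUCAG
miR-24-2*: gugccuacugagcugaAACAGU

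At these levels the arms gave no measure of which cluster supplied the miR-24 signal. The array's miR-3074, whose hairpin overlaps Mir24-1 and which was named after its values were seen, was detected on 0 of 6 arrays.

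Since miR-23a is one of the miRNAs known to bind Runx2 messenger RNA, the others of that group were read from the same fit. Of 11 listed (miR-23a, miR-30c, miR-34c, miR-133a, miR-135a, miR-137, miR-204, miR-205, miR-217, miR-218 and miR-338), all 11 were on the array, 5 were detected on any array and 4 were tested. None had an adjusted p under 0.05 in limma, beside 0% of all tested miRNAs, and none an unadjusted one, beside 9.46%. The changes were 0.13 for miR-34c (standard error 0.09), 0.11 for miR-23a, 0.00 for miR-30c (standard error 0.22) and -0.02 for miR-218 (standard error 0.12). The median of these 4 was 0.06, that of all tested miRNAs also 0.06. miR-204 was detected on 3 arrays, 2 of them non-loading, and was not tested.

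The cells carried the miRNAs of mesenchymal cells. All 7 listed mesenchymal miRNAs were detected, 6 of them on all arrays (miR-145 on 3), and their summed level was 12321%, 13247% and 12112% of the 75th percentile on the non-loading arrays and 13096%, 13379% and 13510% on the loading arrays. This sum adds different probes and is no measure of abundance. The largest part of it was the signal of miR-21, with a change of 0.15 (limma adjusted p = 0.709), and of the 6 tested 5 were above 0, with a median of 0.08. The cartilage miRNAs miR-140 and miR-140* were also on all arrays, at changes of 0.06 and -0.08 (adjusted p = 0.825 in limma, equal for both), and their summed level was between 84.1% and 99.2%. Of the miRNAs of skeletal muscle 0 of 4, of epithelium 0 of 7 and of neurons 0 of 2 were detected on any array, where 487 of the 677 miRNAs of the array were detected on none. Of those of blood cells 1 of 6 was, miR-223 on 5 arrays at 6.38% and 8.23% in the non-loading and loading means (change 0.40, limma adjusted p = 0.709), while miR-142-3p, miR-142-5p, miR-150, miR-144 and miR-451 were not. Of endothelium, where the family is also known, 1 of 2 was, miR-126 at 4.09% and 4.77% (change 0.25, limma adjusted p = 0.724), while miR-126* was not. The change of miR-126, called in full in both groups, was above 0, as were those of the family. That of miR-223 was above 0 too, but its calls were complete in the loading group only. It entered the test through that group alone, which favours such a sign, so its direction is not set beside that of the family. The part of miR-223 and miR-126 in the values of the family was not tested.

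The changes of the family kept their order of size only in part when the processing was altered, and no member passed an adjusted p of 0.05 under any of 26 other settings. miR-27b ranged from 0.15 to 0.39, miR-24 from 0.04 to 0.42, miR-23b from 0.02 to 0.34, miR-27a from 0.02 to 0.32 and miR-23a from -0.04 to 0.37. The highest values of all but miR-27b came with normexp background correction, which put the median of all miRNAs at -0.45, and the lowest of all 5 with a 75th percentile over all probes, which put it at -0.09. Settings that shift all miRNAs alike or alter only the test leave the distance of a member from the median of all tested miRNAs as it was. Over all settings that distance was at least 0.05 for miR-27a, 0.03 for miR-23b, 0.13 for miR-27b and 0.09 for miR-24, and at its lowest -0.06 for miR-23a, without non-loading replicate 1.

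**Figure D4:**
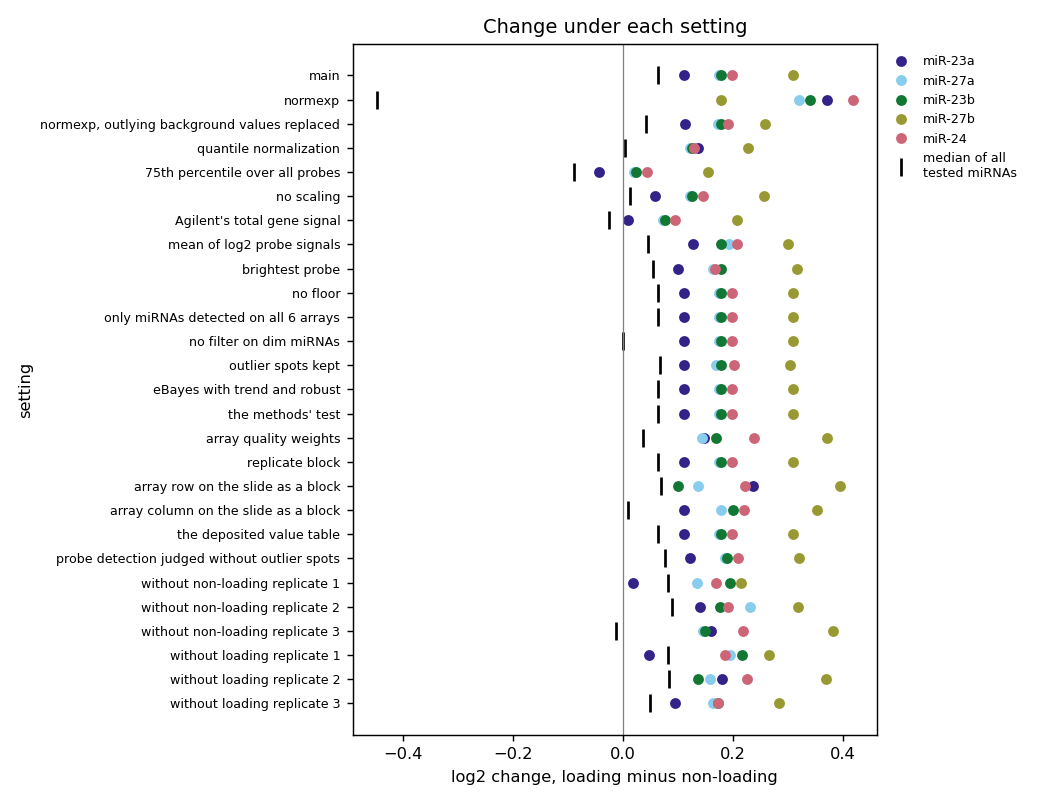
Log2 change, loading minus non-loading (x axis), of the 5 miRNAs (coloured circles) under the main and each of 26 other settings (y axis), with a black tick for the median of all tested miRNAs. miR-27b has the highest change of the 5 in every setting but normexp, and the tick moves to -0.45 with normexp and to -0.09 with the percentile over all probes.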

How the data were processed

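Per the submitters' processing notes, the authors ran Agilent Feature Extraction (10.7), and the deposited files hold a background-subtracted intensity per spot, not scaled between arrays. The deposited value table repeated these intensities (largest difference 0), neither centred nor scaled, with column medians of -0.0688, 0.0199 and -2.03 (non-loading replicates 1 to 3) and 0.0533, -0.422 and 0.440 (loading replicates 1 to 3). Control spots and outlier-flagged spots (2.93% to 4.17%) were left out, spots averaged per probe, and signals under 1.87% of the 75th percentile set to that floor, which concerned no member. For the scaling, a probe counted as detected with 50% of its spots well above background. Detection of a miRNA was the scanner software's own separate call, and a miRNA was tested if so called on all arrays of a group. Groups were compared with limma 3.58.1 (R 4.3.3), Benjamini-Hochberg adjustment over 148 miRNAs and a threshold of 0.05, after the step was tested on simulated data. The methods' test, Student–Newman–Keuls, was an alternative, as were other background corrections, scalings, probe summaries, filters, weights, blocks and each array left out. Normexp used median signals, as mean signals are not a column of these files. The members, lists and tests were chosen with earlier results of these data known. The text names the 5 members, their opposite arms, the Runx2 and cell type lists, and the 3 miRNAs of smallest p. For each member it also names the 2 miRNAs of highest correlation. miR-3074 was added after its values were seen. Arrays keep the names of their design, and coordinates are those of GRCr8.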

Additional observations from a re-analysis of the deposited data

How the results depend on the processing

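The 5 member changes kept their sign and stayed above an adjusted p of 0.05 under all 26 alternatives (limma fits apart from the methods' test), except that miR-23a was at -0.044 with the 75th percentile over all probes. Of these, the methods' test, eBayes with trend and robust, the replicate block and the deposited value table left every member change as it was. Dropping the floor or changing the filter on miRNAs did the same, so all these settings say nothing on the signs. The number of miRNAs past an unadjusted p of 0.05, 14 as reported, was 7 when the array row was a block, 8 with Agilent's total gene signal, 4 without scaling, 1 with the 75th percentile over all probes, 0 with normexp and 8 with normexp after outlying background values were replaced. With 1 array left out it ran from 6 to 17, with 7 when loading replicate 1 was dropped and 6 when loading replicate 3 was. The number past an adjusted p, 0 as reported and 0 with any 1 array left out, was 2 with quantile normalization, array quality weights, the methods' test, eBayes with trend and robust, the brightest probe, the mean of log2 probe signals, outlier spots kept, miRNAs detected on all 6 arrays only, and probe detection judged without outlier spots, a setting chosen after seeing the data. The ratio of miR-23a over miR-23b turned to 0.031 with normexp, 0.010 with quantile normalization and 0.14 with the row as a block, and ran from -0.18 to 0.044 with 1 array left out. That of miR-23a over miR-27a turned to 0.051, 0.013 and 0.10 in the same settings, and ran from -0.15 to 0.023. With normexp, miR-27a over miR-27b was 0.14 and miR-23b over miR-27b 0.16, and with the row as a block they were -0.26 and -0.29. The cause was not tested. Normexp moved the median of all miRNAs by -0.51 and the percentile over all probes by -0.15. Whether replicate numbers pair samples is not known. Arrays with the same number deviated from their group means with correlations of -0.69, -0.47 and 0.11 over 148 miRNAs. These values cannot decide it, since the deviations also hold differences between arrays. With the replicate block, the counts were 6 (unadjusted, with no member among them) and 0 (adjusted), and the members kept their changes with an adjusted p of 0.850 in limma. All 600 member spots were well above background, while 0 of the 6 opposite arms could be tested. The standard errors of the member changes were 0.08 to 0.12 as reported and 0.44 to 0.55 with normexp. With normexp after outlying background values were replaced, they were 0.05 to 0.11. The part of background in the member changes was not tested.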
